A study of Mus musculus with 35 samples.

Results

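Ribosomal protein genes, named Rps for the small and Rpl for the large subunit of the ribosome, and the pseudogenes named after them were followed in RNA of whole lungs from 34 mice. A gene was taken when it was protein-coding and its symbol was Rpl or Rps with a number, or when its symbol began with Rpl or Rps and ended in -ps with or without a number. The rule used no measured value, and it took 390 of the 54532 genes of the count table. Of these, 92 were protein-coding genes and 298 were named pseudogenes. Among the protein-coding genes, 73 encode ribosomal proteins and 8 are paralogues of them, while 11 (kinases named after ribosomal protein S6, and Rps19bp1) carry such a symbol but encode no ribosomal protein. By their symbols, 296 of the pseudogenes have a parent gene, and they form 60 families of a parent and its pseudogenes. The families of Rps12 and Rpl31 were the largest, with 24 pseudogenes each.

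Adult mice at least 3 months old came from 3 genotypes. Control mice were B6/129SJ2, Cav1-KO mice carried a knockout of caveolin-1 in every cell (Cav1(tm1Mls/)J), and Cav1-RC mice carried that knockout with caveolin-1 put back in endothelial cells only. According to the methods, Control and Cav1-KO mice were first bought from Jackson Labs, while Cav1-RC mice came from Yale University. Cav1 status and mouse line therefore cannot be told apart in the genotype contrasts. Females and males of each genotype had spent 6 weeks in room air (normoxia) or at 10% oxygen (hypoxia). This gives 12 groups of 3 mice, except that the normoxic females of Cav1-KO and of Cav1-RC numbered 2 each. The labels do not say whether the mice of a group shared a litter, so p-values measure the spread between these lungs.

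The libraries held 12425535 to 33343006 counts. Cav1 itself stood at 977 to 1361 CPM (counts divided by library size, with edgeR's TMM factors) in the 12 Control libraries, at 1.62 to 3.93 in the 11 Cav1-KO libraries and at 1.48 to 6.48 in the 11 Cav1-RC libraries, so it checks the knockout but cannot tell Cav1-RC from Cav1-KO. Every marker of alveolar type 1, alveolar type 2, club, ciliated and endothelial cells had counts in every library. Some libraries stood apart. Male Control hypoxia replicates 1 and 3 had Control levels of Cav1, at 1173 and 1008 CPM, but differed from the other 10 Control libraries at several pseudogenes and at Rpl29. In 4 libraries the sex-linked genes went against the label, namely male Cav1-RC normoxia replicates 1 and 2, male Control hypoxia replicate 2 and female Cav1-KO hypoxia replicate 2. The animal numbers of 12 libraries also appear in the study's western blot records, and these include all 6 of Cav1-KO hypoxia and all 3 of male Control hypoxia but none of Cav1-KO normoxia or of Cav1-RC hypoxia. In these 12 libraries the 73 ribosomal protein genes took 2.43 to 3.58% of counts (median 2.83%), against 2.09 to 2.84% (median 2.26%) in the other 22.

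A ribosome holds a single copy of most of its proteins, and cells keep the amounts of these proteins balanced. Their messenger RNAs are short and abundant, and in the course of evolution many were copied back into the genome as intronless processed pseudogenes. Most such copies have no promoter of their own and lie far from the parent. A copy that is still near-identical competes with its parent for sequencing reads. The authors counted reads with featureCounts at default settings, under which a read that aligns to several places is not counted. A count here is therefore a count of reads that could be placed at a single locus. Strand was not used in counting at these settings, although the libraries were directional, so a gene and a transcript antisense to it cannot be told apart.

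The copies printed here, from 4 families, can be told from their parent only at a small number of bases or not at all. Other copies of these families are less alike, down to Rps13-ps8 with an identity of 70.9%. Rps2-ps6, described further on, is less alike, with an identity of 95.1% to Rps2 (7 mismatches and 37 gap bases in the alignment). The coding sequence of Rps13, without its stop codon, is 453 bases long, and Rps13-ps2 is identical to it over its whole length. Rps13-ps1 differs from it at 2 bases (T411C and A429G, the parent's base first, counted from the first base of the start codon) and Rps13-ps4 at 3 (C106A, G121C and T411C). The stretch from base 361 to 453 is printed because it holds the bases by which Rps13-ps1 can be told from its parent. Bases that differ from the parent are in capitals. All sequences are read 5′ to 3′ on the sense strand from the GENCODE vM21 transcripts (GRCm38, the assembly of mm10). Rps13 lies at chr7:116331505-116334195 on the minus strand, Rps13-ps1 at chr8:87047689-87048226 on the plus strand, Rps13-ps2 at chr7:88530446-88530898 on the minus strand and Rps13-ps4 at chr8:119602170-119602625 on the minus strand.
Rps13: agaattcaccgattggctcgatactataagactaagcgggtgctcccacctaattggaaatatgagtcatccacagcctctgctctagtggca
Rps13-ps1: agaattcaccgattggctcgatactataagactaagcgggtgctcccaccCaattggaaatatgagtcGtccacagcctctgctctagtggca
Rps13-ps2: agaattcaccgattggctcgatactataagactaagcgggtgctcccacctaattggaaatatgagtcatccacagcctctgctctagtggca
Rps13-ps4: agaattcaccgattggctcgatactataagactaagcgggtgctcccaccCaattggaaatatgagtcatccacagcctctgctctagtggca

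The 5 of the 8 named copies of Rps15a that are called in Cav1-KO against Control are shown from base 121 to 180, where base 150 sets these 5 apart from the parent (T150C) and other bases set them apart from each other. Rps15a lies on chromosome 7, Rps15a-ps3 and Rps15a-ps4 on chromosome 4, Rps15a-ps5 on 5, Rps15a-ps6 on 11 and Rps15a-ps7 on 2.
Rps15a: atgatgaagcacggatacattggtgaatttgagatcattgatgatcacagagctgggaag
Rps15a-ps3: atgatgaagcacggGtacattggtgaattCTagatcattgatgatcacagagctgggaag
Rps15a-ps4: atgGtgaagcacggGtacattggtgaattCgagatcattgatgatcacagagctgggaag
Rps15a-ps5: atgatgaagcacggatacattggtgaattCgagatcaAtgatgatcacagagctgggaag
Rps15a-ps6: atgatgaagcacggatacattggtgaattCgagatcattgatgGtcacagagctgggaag
Rps15a-ps7: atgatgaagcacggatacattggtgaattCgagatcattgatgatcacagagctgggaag

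Rpl15 is shown from base 3 to 120 because Rpl15-ps3 is identical to it while Rpl15-ps2, with 8 differing bases in all, differs at 3 of them here. Rpl15 lies on chromosome 14 and both copies on chromosome 9.
Rpl15: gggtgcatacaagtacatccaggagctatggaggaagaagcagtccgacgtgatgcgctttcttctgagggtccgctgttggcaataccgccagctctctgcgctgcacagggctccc
Rpl15-ps2: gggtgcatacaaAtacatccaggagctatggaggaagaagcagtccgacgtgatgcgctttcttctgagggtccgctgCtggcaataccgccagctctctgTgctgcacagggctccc
Rpl15-ps3: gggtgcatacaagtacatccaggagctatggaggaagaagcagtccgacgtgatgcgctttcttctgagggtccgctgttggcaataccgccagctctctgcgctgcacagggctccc

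Rps10 is shown from base 391 to 453 because most of its family's counts fell on Rps10-ps2, which differs from it at 4 bases, all in this stretch (T393C, T408C, C437G and A438G), over the 89.9% of the coding sequence that could be aligned. Rps10 lies on chromosome 17, Rps10-ps1 on 3 and Rps10-ps2 on 16. An alignment to the coding sequence of the parent was found for 293 of the 298 pseudogenes, with a median identity of 95.7%. Of them, 11 matched the whole coding sequence with no differing base, and 123 were at least 95% identical over at least 90% of it. A further 736 genes of the annotation, not named after a parent, matched a ribosomal protein coding sequence at 90% identity over at least 80% of its length, so the named pseudogenes are a part of all copies.
Rps10: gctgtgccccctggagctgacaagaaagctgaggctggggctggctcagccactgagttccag
Rps10-ps1: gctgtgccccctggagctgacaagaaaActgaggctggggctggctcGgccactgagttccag
Rps10-ps2: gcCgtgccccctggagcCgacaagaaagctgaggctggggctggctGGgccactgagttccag

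Levels of the parents spanned a wide range although the proteins are needed in equal numbers. On the per-length scale of FPKM, deposited by the authors, the highest of the 73 in the 6 normoxic Control lungs were Rps3a1 at 862 ± 276 (SD, n = 6), Rps15 at 795 ± 245, Rpl41 at 556 ± 210, Rpl8 at 474 ± 70.6 and Rps14 at 455 ± 124. Rps3a1 and Rps15 differed by less than their spread, and so did Rpl41, Rpl8 and Rps14. The lowest were Rpl29 at 1.69 ± 0.44, Rps10 at 2.11, Rpl24 at 7.94, Rpl13a at 8.90 and Rps15a at 30.7. Each of these 5 has named pseudogenes or unnamed copies in the annotation, and how many of their reads were set aside in counting was not tested. As a share of all counts, the 73 genes took 2.09 to 3.58% per Control library, 2.15 to 3.00% per Cav1-KO library and 2.24 to 2.84% per Cav1-RC library, ranges that overlap.

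Pseudogenes took few counts in all but large shares of single families. Of the 298, 85 had no count in any of the 34 libraries, and 140 never passed 3 counts in a library, which is the most that a count of 0 leaves possible for counting error. All 298 together took 0.109 to 0.231% of a library's counts. The share of a family's counts that fell on its pseudogenes had a median of 2.17% over the 60 families in Control, and it was above 10% in 15 families. It was highest for Rps10, at 94.5 ± 2.14% (SD, n = 12) in Control, 92.1 ± 2.49% (n = 11) in Cav1-KO and 95.4 ± 1.78% (n = 11) in Cav1-RC. Next were Rpl17 with 66.2, 64.4 and 62.4%, Rps13 with 34.6, 9.96 and 38.3%, Rps12 with 32.9, 32.5 and 32.8% and Rpl21 with 31.4, 33.2 and 38.9%, in the same order of genotypes. The order of these families depends on the scale. By FPKM in place of counts the means in Control were 98.8% for Rps10, 75.8% for Rpl21, 72.96% for Rpl17, 70.8% for Rps13 and 67.7% for Rps12. For Rps13 no Cav1-KO library overlapped with a Cav1-RC library, while 2 Control libraries lay within the Cav1-KO range.

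**Figure D1:**
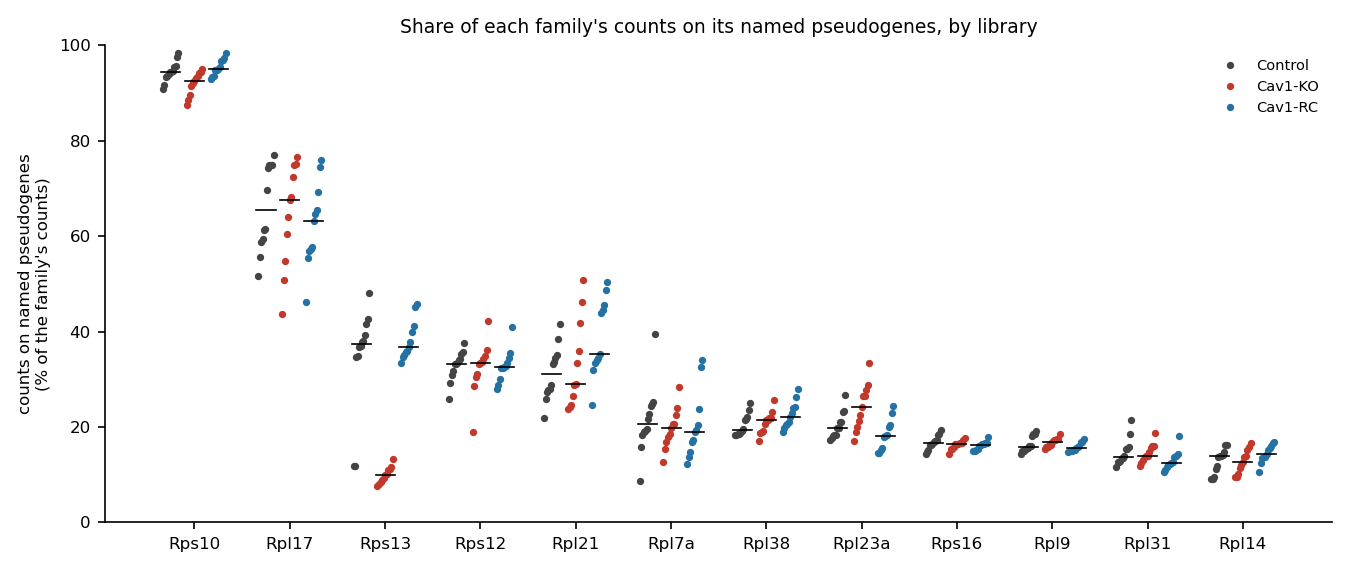
Share of each family's counts that fell on named pseudogenes, in percent, for the 12 families with the largest share in Control, by genotype, with 1 point per library and a bar at the median. The Rps13 family lies between 7.59 and 13.4% in all 11 Cav1-KO libraries and between 33.5 and 45.7% in all 11 Cav1-RC libraries, whereas the Rps10 family stays above 87% in every library.

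Rps13, a protein of the small subunit, has copies that differed between genotypes in opposite directions. Rps13-ps1 stood at 51.0 to 151 CPM (median 71.2) in the 10 Control libraries other than male hypoxia replicates 1 and 3, at 1.52 to 2.94 (median 1.95) in all 11 Cav1-KO libraries and at 54.6 to 123 (median 61.3) in all 11 Cav1-RC libraries. Male Control hypoxia replicates 1 and 3 were at 2.48 and 2.87 CPM, inside the Cav1-KO range, and replicate 2 of that group was at 102. Rps13-ps2, identical to the parent in its coding part, moved the other way. It stood at 0.228 to 1.85 CPM in the 10 Control libraries, at 11.1 to 26.1 in Cav1-KO and at 0.305 to 1.22 in Cav1-RC, and at 30.7 and 26.7 in male Control hypoxia replicates 1 and 3. In both pseudogenes the Cav1-KO libraries overlapped with neither the 10 Control libraries nor the Cav1-RC libraries.

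The parent moved less. Rps13 itself was at 97.6 to 208 CPM (median 112) in the 10 Control libraries, at 148 to 231 (median 188) in Cav1-KO and at 89.7 to 151 (median 108) in Cav1-RC, and male Control hypoxia replicates 1 and 3 had 250 and 227.4. In an edgeR quasi-likelihood fit over the 34 libraries, with a contrast averaged over both sexes and both oxygen levels, Rps13-ps1 fell by 4.95 on the log2 scale (SE 0.47, adjusted p = 1.71e-08) in Cav1-KO against Control and rose by 5.06 (SE 0.47, adjusted p = 1.27e-08) in Cav1-RC against Cav1-KO. Rps13-ps2 rose by 3.47 (SE 0.36, adjusted p = 1.10e-07) and fell by 4.87 (SE 0.42, adjusted p = 3.51e-09) in the same contrasts. Without male Control hypoxia replicates 1 and 3, these changes in Cav1-KO were -5.34 and 5.05. Against Control, Rps13-ps2 also fell in Cav1-RC, by 1.40 (adjusted p = 0.035), but without these 2 libraries its value was 0.19 (adjusted p = 0.70). Rps13-ps4 followed Rps13-ps1 at a far lower level, with a log2 fold change of -1.14 (SE 0.28, adjusted p = 0.0050) in Cav1-KO and 1.26 (SE 0.28, adjusted p = 0.0024) in Cav1-RC against Cav1-KO. The other named copies, Rps13-ps5 to Rps13-ps8, stayed at or under 0.416 CPM in every library.

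Set beside its pseudogenes, Rps13 rose by 0.37 (SE 0.12, adjusted p = 0.036) in Cav1-KO against Control and fell by 0.71 (SE 0.13, adjusted p = 2.02e-04) in Cav1-RC against Cav1-KO. Summed with all 7 named pseudogenes, the family changed by -0.11 (SE 0.11, adjusted p = 0.58) and -0.14 (SE 0.12, adjusted p = 0.39), so neither call held for the sum. The summed level was 150 to 363 CPM (median 203) in Control, 163 to 259 (median 217) in Cav1-KO and 153 to 277 (median 172) in Cav1-RC, and the ranges overlapped throughout. Pseudogenes held 34.6 to 48.2% of the family's counts in the 10 Control libraries, 7.59 to 13.4% in Cav1-KO and 33.5 to 45.7% in Cav1-RC, and 11.9 and 11.8% in male Control hypoxia replicates 1 and 3. Per length, with FPKM in place of counts, the mean shares were 70.8, 39.0 and 75.6%. The order of the genotypes was the same on both scales.

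**Figure D2:**
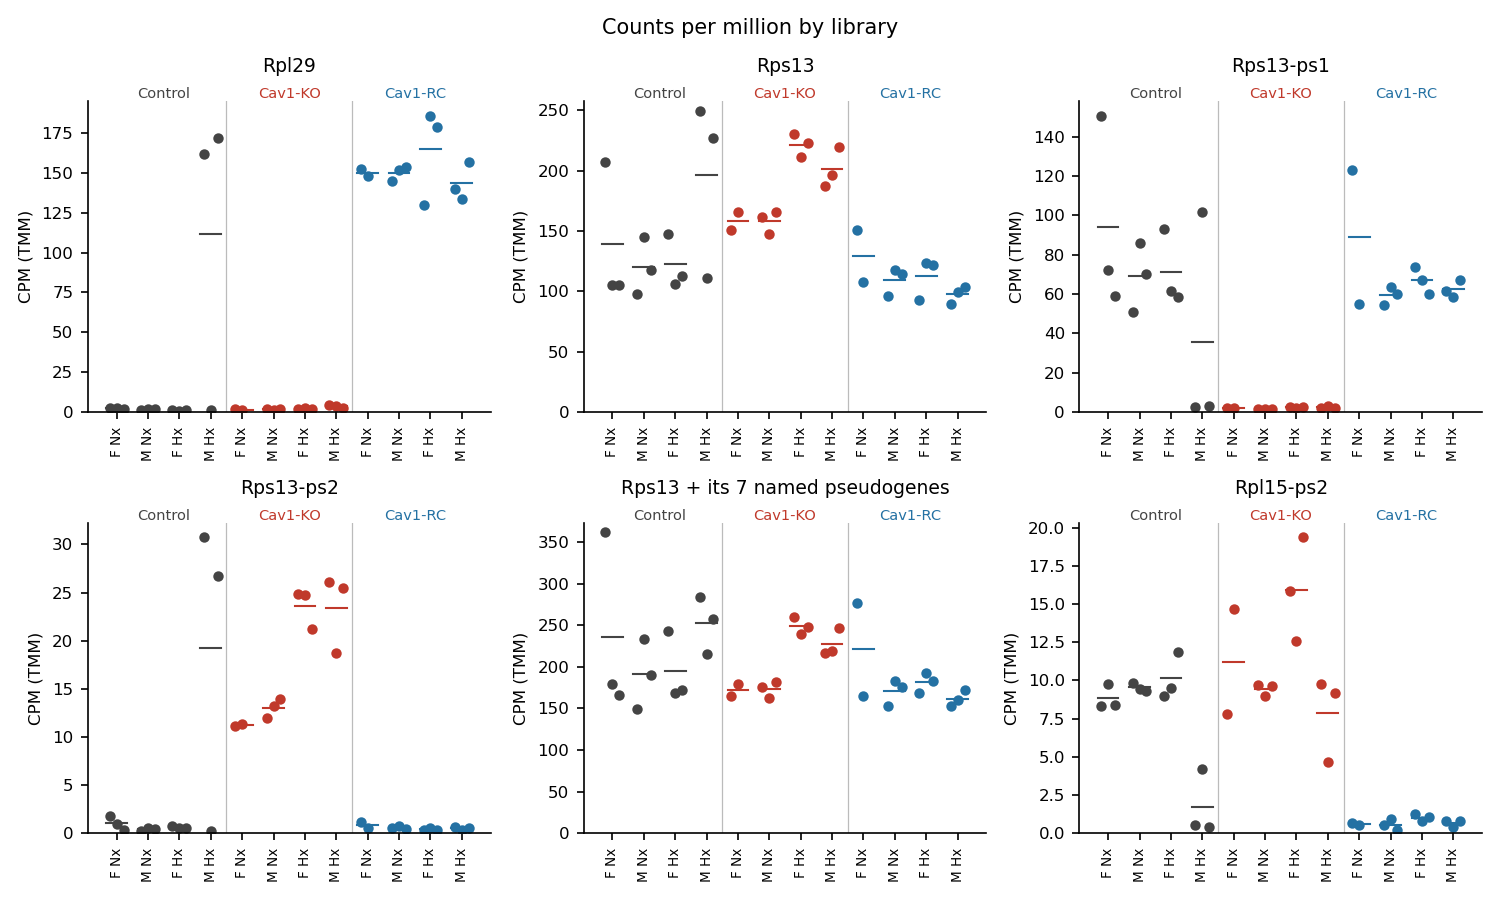
CPM on a linear axis, in a panel each for Rpl29, Rps13, Rps13-ps1, Rps13-ps2, Rps13 summed with its 7 named pseudogenes, and Rpl15-ps2, with 1 point per library and a bar at the group mean (F female, M male, Nx normoxia, Hx hypoxia). Rps13-ps1 lies at 1.52 to 2.94 CPM in Cav1-KO and Rpl29 at 130 to 186 CPM in Cav1-RC, and male Control hypoxia replicates 1 and 3 lie apart from the other Control libraries at both.

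Rpl29, a large-subunit protein for which mice can live without the gene, was near absent from counts in Control and Cav1-KO and plentiful in Cav1-RC. It stood at 0.493 to 2.65 CPM (median 1.51) in the 10 Control libraries, at 1.00 to 4.38 (median 1.96) in Cav1-KO and at 130 to 186 (median 152) in Cav1-RC. Male Control hypoxia replicates 1 and 3 were at 162 and 172 CPM, inside the Cav1-RC range, while replicate 2 was at 1.25. All Cav1-RC libraries of both sexes and both oxygen levels thus lay above all Cav1-KO libraries. The log2 fold change was 6.24 (SE 0.45, adjusted p = 1.19e-10) in Cav1-RC against Cav1-KO and 5.04 (SE 0.39, adjusted p = 4.09e-10) against Control, or 6.67 against Control without male hypoxia replicates 1 and 3. In Cav1-KO against Control it was -1.20 (SE 0.43, adjusted p = 0.053) and was not called, and without those 2 libraries the sign turned, to 0.42 (adjusted p = 0.16).

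The named pseudogenes of Rpl29 had low counts, and summing moved its change little. They held at most 0.167% of the family's counts in a Cav1-RC library and up to 27.3% in a Cav1-KO library, where the whole family was low. Rpl29 lies at chr9:106429454-106431568 on the plus strand. Rpl29-ps2, which is 97.7% identical, did not pass 0.311 CPM in a library, Rpl29-ps1 did not pass 0.129, and the summed family changed by 6.14 (SE 0.44, adjusted p = 1.23e-10) in Cav1-RC against Cav1-KO. The annotation also holds 56 unnamed copies of Rpl29. They summed to 75.7 to 124 CPM (median 85.0) in Control, 81.8 to 115 (median 88.5) in Cav1-KO and 66.4 to 88.4 (median 69.7) in Cav1-RC. Uimc1, a gene with a stretch that is 99.8% identical to the Rpl29 coding sequence, led them with medians of 49.3, 61.9 and 43.6 CPM, followed by Gm13841 with 29.5, 26.6 and 15.5 CPM. The medians of these copies lay closer together than those of Rpl29, and their ranges overlapped between genotypes.

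Rpl15, another protein of the large subunit, rose in Cav1-RC while its pseudogenes Rpl15-ps2 and Rpl15-ps3 fell. The parent was at 123 to 190 CPM (median 160) in the 10 Control libraries, at 126 to 181 (median 160) in Cav1-KO and at 186 to 270 (median 208) in Cav1-RC, so that no Cav1-RC library overlapped with Cav1-KO. Its log2 fold change in Cav1-RC was 0.40 (SE 0.07, adjusted p = 2.29e-04) against Cav1-KO and 0.32 (SE 0.07, adjusted p = 0.0027) against Control. Rpl15-ps2, with 8 differing bases, stood at 4.23 to 11.9 CPM in the 10 Control libraries, at 4.67 to 19.4 in Cav1-KO and at 0.239 to 1.23 in Cav1-RC, and at 0.521 and 0.418 in male Control hypoxia replicates 1 and 3. It fell by 3.93 (SE 0.29, adjusted p = 2.16e-10) against Cav1-KO and by 3.11 (SE 0.29, adjusted p = 1.50e-08) against Control.

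Rpl15-ps3, identical to the parent over its 612 coding bases, was at 2.65 to 4.12 CPM in Cav1-KO and at 0.419 to 1.29 in Cav1-RC. The 10 Control libraries had 2.88 to 6.97 CPM, and male Control hypoxia replicates 1 and 3 had 1.56 and 0.627. It fell by 2.11 (SE 0.27, adjusted p = 2.27e-06) in Cav1-RC against Cav1-KO and by 2.10 (SE 0.27, adjusted p = 2.26e-06) against Control. The summed family kept its rise, of 0.30 (SE 0.07, adjusted p = 0.0025) and 0.24 (SE 0.07, adjusted p = 0.017). The 17 unnamed copies of Rpl15 together went the same way as its pseudogenes, with medians of 62.7 CPM in Control and 64.2 in Cav1-KO against 12.5 in Cav1-RC. One of them, Gm10020, was at 22.9 to 45.6 CPM in Cav1-KO and at 0.183 to 0.828 in Cav1-RC.

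Of the copies of Rps15a, a small-subunit protein, 4 fell and 1 rose in Cav1-KO. Rps15a-ps7, the most abundant, was at 7.25 to 19.9 CPM (median 9.61) in the 10 Control libraries, at 1.84 to 7.72 (median 3.14) in Cav1-KO and at 6.16 to 16.0 (median 9.87) in Cav1-RC. It fell by 1.46 (SE 0.19, adjusted p = 5.36e-06) in Cav1-KO against Control and rose by 1.67 (SE 0.20, adjusted p = 6.11e-07) in Cav1-RC against Cav1-KO. Rps15a-ps5 fell by 2.44 (SE 0.34, adjusted p = 1.08e-05), from 1.73 to 6.40 CPM in the 10 Control libraries to 0 to 1.69 in Cav1-KO, and Cav1-RC had 2.02 to 5.68. Male Control hypoxia replicates 1 and 3 lay low here too, at 4.89 and 3.29 CPM for Rps15a-ps7 and at 0.481 and 0.314 for Rps15a-ps5, inside the Cav1-KO range for both. Rps15a-ps3 and Rps15a-ps6 fell by 1.23 and 0.68. Rps15a-ps4 rose by 1.84 (SE 0.29, adjusted p = 6.15e-05), from 0.0456 to 0.548 CPM in the 10 Control libraries to 0.381 to 1.76 in Cav1-KO, and male Control hypoxia replicates 1 and 3 both had 1.04.

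Rps15a itself was at 162 to 297 CPM in the 10 Control libraries, 189 to 281 in Cav1-KO and 159 to 221.2 in Cav1-RC. Its log2 fold change was 0.16 (SE 0.08, adjusted p = 0.21) in Cav1-KO against Control and -0.31 (SE 0.09, adjusted p = 0.011) in Cav1-RC against Cav1-KO. The sum with its copies gave -0.20 (SE 0.09, adjusted p = 0.10) in the second contrast and was not called.

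Rps2, a small-subunit protein at the entry of the messenger RNA channel, was the ribosomal protein gene with the smallest adjusted p in Cav1-KO against Control. It stood at 383 to 564 CPM (median 419.2) in all 12 Control libraries, at 108 to 373 (median 216) in Cav1-KO and at 225.6 to 481 (median 318) in Cav1-RC, and no Cav1-KO library reached the Control range. It fell by 0.77 (SE 0.10, adjusted p = 2.50e-06) in Cav1-KO against Control and by 0.44 (SE 0.10, adjusted p = 0.0024) in Cav1-RC against Control. In Cav1-KO the hypoxic libraries had 108 to 216 CPM and the normoxic ones 335 to 373. With only the 22 libraries outside the western blot records, which leave out every Cav1-KO hypoxia library, the change in Cav1-KO was -0.27 (adjusted p = 0.11).

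Of the 10 named copies of Rps2, Rps2-ps6 and Rps2-ps13 rose while the parent fell. Rps2-ps6, on chromosome 14, was at 0 to 0.616 CPM in all 12 Control libraries, at 0.907 to 9.28 in Cav1-KO and at 1.55 to 8.85 in Cav1-RC, so that neither overlapped with Control. It rose by 3.71 (SE 0.41, adjusted p = 2.99e-07) in Cav1-KO and by 3.86 (SE 0.41, adjusted p = 1.49e-07) in Cav1-RC, both against Control, and the 2 contrasts share their Control libraries. Rps2-ps13, on the X chromosome, rose by 0.45 (SE 0.14, adjusted p = 0.024) and 0.52 (SE 0.14, adjusted p = 0.011). Summed with all 10 named copies, Rps2 still fell by 0.66 (SE 0.09, adjusted p = 1.58e-05) in Cav1-KO.

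Rps10, on chromosome 17, had fewer counts than its copies in every library. The parent was at 1.36 to 6.95 CPM in Control, 3.97 to 9.64 in Cav1-KO and 1.53 to 7.44 in Cav1-RC. Rps10-ps2 was at 57.3 to 112 CPM, 51.9 to 75.1 and 50.5 to 82.7 in the same order, and was called in none of the 6 averaged contrasts. The parent fell by 0.81 (SE 0.20, adjusted p = 0.0047) in Cav1-RC against Cav1-KO, whereas the sum changed by -0.05 (SE 0.11, adjusted p = 0.74). With a term for the libraries in the western blot records, the parent's value was -0.42 (adjusted p = 0.13).

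**Figure D3:**
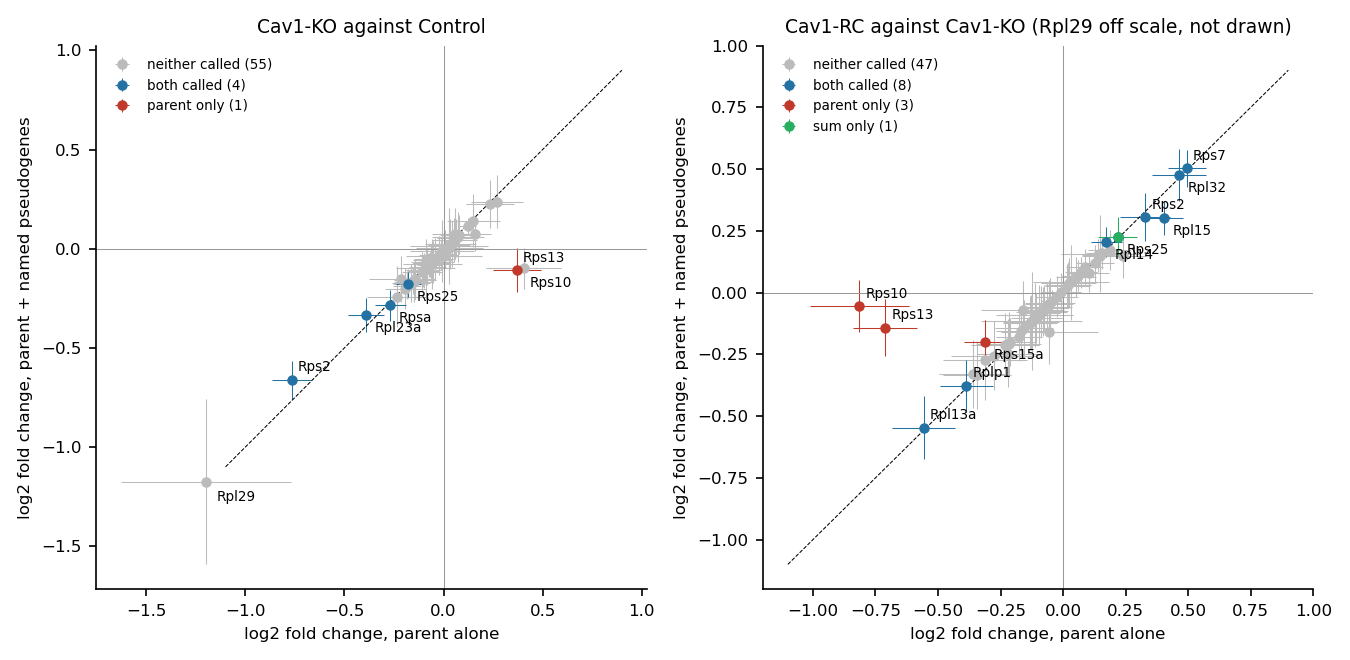
Log2 fold change of the parent alone on the x axis and of the parent summed with its named pseudogenes on the y axis, 1 point per family, in Cav1-KO against Control and Cav1-RC against Cav1-KO, with the line of equal values. Bars are SE and colours show which of the 2 values was called. Rps13 and Rps10 lie farthest from the line, and Rpl29, at 6.24 alone and 6.14 summed, is not drawn in the second panel.

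Over the 60 families, summing moved the log2 fold change by a median of 0.0091 in Cav1-KO against Control and by at most 0.50. In that contrast 5 parents and 4 sums were called, beside 7.36% of all genes higher and 9.51% lower, with Rps13 the one lost. In Cav1-RC against Cav1-KO 12 parents and 10 sums were called, beside 11.1% and 10.4% of all genes, with Rps13, Rps10 and Rps15a lost and Rpsa gained (singled out after their values were seen). In Cav1-RC against Control 6 parents and 6 sums were called, beside 6.17% and 6.94%, and they were the same 6 families. In hypoxia against normoxia in Cav1-KO 33 parents and 34 sums were called, 30 of them in common, beside 25.1% of all genes higher and 24.5% lower.

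In Cav1-KO against Control, 199 of the 390 members passed the filter on low counts (73 of the 73 ribosomal protein genes, 6 of the 8 paralogues, 11 of the 11 with another function and 109 of the 298 pseudogenes). At an adjusted p under 0.05, 10 members were higher and 11 lower, where 7.36% of all 19870 genes tested were higher and 9.51% lower. Of the 73 ribosomal protein genes 2 were higher and 3 lower, with a median log2 fold change of -0.06 beside -0.01 over all genes. Rpl11, which also binds the p53 regulator Mdm2, rose by 0.29 (SE 0.08, adjusted p = 0.0083). Its 8 unnamed copies in the annotation summed to a median of 81.6 CPM over the Control libraries, while Cav1-KO had 13.5 and Cav1-RC 12.1, and their part in its values was not tested. Rpl23a, a protein at the exit of the nascent chain, fell by 0.39 (SE 0.09, adjusted p = 0.0036). Without the blot-recorded libraries the change of Rpl23a was -0.13 (adjusted p = 0.37). Of the 109 pseudogenes tested, 6 were higher and 8 lower, and all but Rpsa-ps10 belong to the Rps13, Rps15a, Rps2, Rpl15 and Rpl21 families. Rpl15-ps2 rose by 0.82 (SE 0.23, adjusted p = 0.015), and its value without male Control hypoxia replicates 1 and 3 was 0.47 (adjusted p = 0.063). In a bulk sample, fewer cells of a type and less RNA per cell cannot be told apart.

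In Cav1-RC against Cav1-KO, 15 members were higher and 17 lower, beside 11.1% and 10.4% of all genes. Among the 73 ribosomal protein genes 7 were higher and 4 lower, with a median log2 fold change of -0.07 and 28 above 0, and among the 109 pseudogenes 8 were higher and 11 lower. With a term for the western blot records the ribosomal protein genes gave 5 and 1, with a median of 0.11 and 61 above 0, and the pseudogenes 11 and 6. Rps7, a small-subunit protein, rose by 0.49 (SE 0.08, adjusted p = 2.67e-05) and stood at 288 to 441 CPM in Cav1-RC against 230 to 273 in Cav1-KO, without overlap. Its 11 unnamed copies lay the other way, at 59.9 to 102 CPM in Cav1-RC against 108 to 166 in Cav1-KO, also without overlap, and their part in the rise was not tested. Rpl13a, known from the silencing of inflammatory messenger RNAs, fell by 0.56 (SE 0.13, adjusted p = 0.0025), but gave -0.26 (adjusted p = 0.056) with a term for the western blot records. Rpl31-ps15 fell by 2.96 (SE 0.48, adjusted p = 5.92e-05), from 0.25 to 0.914 CPM in Cav1-KO to 0 to 0.239. In Cav1-RC against Control, 11 members were higher and 9 lower, beside 6.17% and 6.94% of all genes. Rps7 and Rpl11 rose here too, by 0.40 (SE 0.07, adjusted p = 3.00e-04) and 0.32 (SE 0.08, adjusted p = 0.0051). The unnamed copies of Rps7 had medians of 158 CPM in Control and 81.5 in Cav1-RC, and those of Rpl11 81.6 and 12.1. Rps19-ps3 fell by 1.13 (SE 0.21, adjusted p = 3.23e-04).

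Taken sex by sex, with only the libraries of 2 groups in a fit and a threshold of 1 on the absolute log2 fold change, few members were called in normoxia. In Cav1-KO against Control 1 of 176 members tested was called in females, beside 0.122% of all genes, and 7 of 170 in males, beside 5% of all genes. Rps13-ps1 was the one in females, with a log2 fold change of -5.55 (SE 0.54, adjusted p = 0.026), and had -5.45 (SE 0.22, adjusted p = 1.61e-05) in males. The counts in Cav1-RC against Cav1-KO were 2 of 170 in females, beside 0.1%, and 10 of 168 in males, beside 3.59%. In Cav1-RC against Control they were 2 of 173, beside 0.137%, and 5 of 173, beside 2.45%. In 2 of the 3 male Cav1-RC normoxia libraries the sex-linked genes go against the label, and without these the male counts were 8 against Cav1-KO and 2 against Control. Rpl29 was called in both sexes in both of these contrasts, by 6.71 and 6.53 against Cav1-KO and by 6.11 and 6.47 against Control.

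In hypoxia, 3 of 188 members tested were called in Cav1-KO against Control in females, beside 0.768% of all genes, and 1 of 176 in males, beside 0.929%. In 1 fit over the 34 libraries 26 and 5 were called, but the share of all genes called in that fit is not given. In the fits of 2 groups Rps2 was called in both sexes, at -1.26 (SE 0.18, adjusted p = 0.035) in females and -1.28 (SE 0.22, adjusted p = 0.035) in males. The others in females were Rps13-ps1 at -4.92 and Rps13-ps2 at 5.23. In males these had -3.94 (adjusted p = 0.17) and 0.26 (adjusted p = 0.90), in a comparison where Control replicates 1 and 3 lie at 2.48 and 2.87 CPM for Rps13-ps1 and at 30.7 and 26.7 for Rps13-ps2, beside 1.83 to 2.94 and 18.7 to 26.1 in the male Cav1-KO libraries. In Cav1-RC against Cav1-KO, 20 of 184 were called in females, beside 8.98%, and 35 of 173 in males, beside 14.8%. Of these, 16 and 28 were lower in Cav1-RC, a split that was not set beside that of all genes. The western blot records hold all hypoxic Cav1-KO and no hypoxic Cav1-RC library, so that genotype and records cannot be told apart in these pairs. In 1 fit over the 34 libraries, 25 and 33 were called, and with a term for the records 9 and 9. In Cav1-RC against Control, 4 of 176 were called in females, beside 0.832%, and 24 of 169 in males, beside 9.9%. The male comparison rests on a Control group that is wholly in the records and in which replicates 1 and 3 stand apart, and in 1 fit over the 34 libraries 20 members were called there without the term and 1 with it. Without the library whose sex-linked genes go against its label, male Control hypoxia replicate 2, 32 were called.

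Of the 6 averaged contrasts, hypoxia against normoxia in Cav1-KO lungs called the most members. There, 88 members were higher and 13 lower in hypoxia, beside 25.1% and 24.5% of all genes. Of the 73 ribosomal protein genes 34 rose and 6 fell, with a median log2 fold change of 0.40 beside 0.03 over all genes, and of the 109 pseudogenes tested 49 rose and 2 fell, with a median of 0.68. Pseudogenes are listed here only where they passed the filter on low counts, which a member high in a single group can do. The share of all counts on the 73 genes was 2.15 to 2.37% in the 5 normoxic and 2.43 to 3.00% in the 6 hypoxic Cav1-KO libraries, without overlap. All of the hypoxic and none of the normoxic Cav1-KO libraries are in the western blot records, so that the 2 cannot be told apart within Cav1-KO. In an edgeR fit with a term for these records, 0 members were called and the median over the 73 genes was -0.11. The size of that term is set only by the female groups with libraries of both kinds, none of them Cav1-KO. It therefore rests on few libraries.

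**Figure D4:**
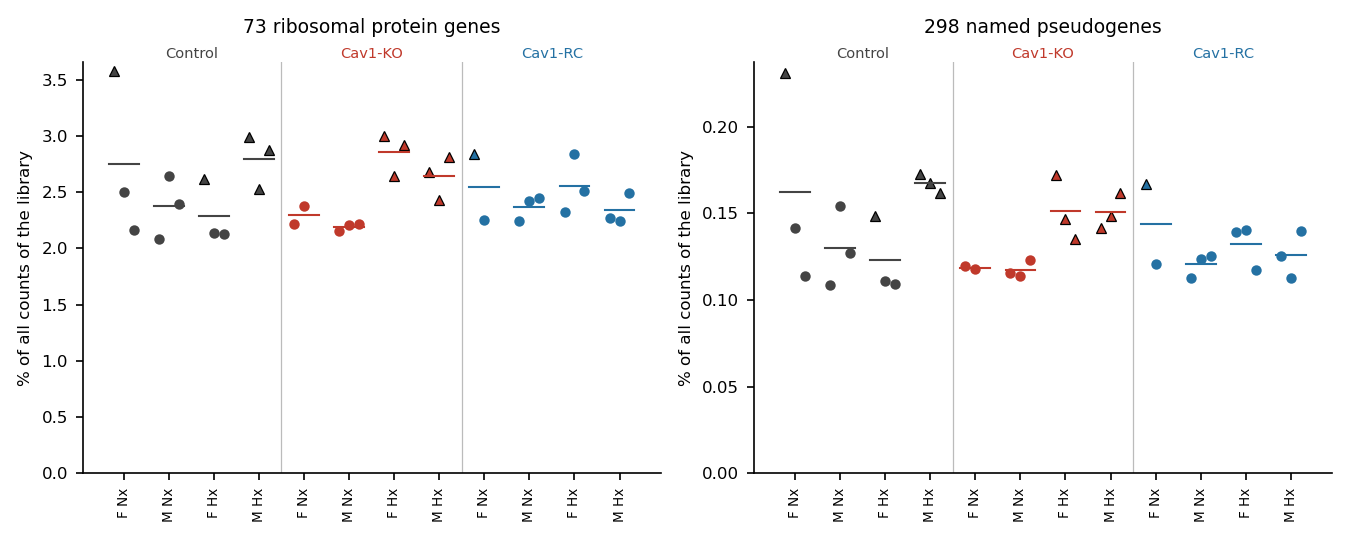
Share of all counts of a library, in percent, on the 73 ribosomal protein genes (left) and the 298 named pseudogenes (right), with 1 point per library, a bar at the group mean and triangles for the 12 libraries in the western blot records. Hypoxic Cav1-KO libraries, all triangles, lie at 2.43 to 3.00% in the left panel and normoxic ones, all circles, at 2.15 to 2.37%.

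Among the genes that rose, Rpl13a changed by 1.07 (SE 0.18, adjusted p = 7.57e-05), Rpl36a by 1.03 (SE 0.19, adjusted p = 2.03e-04), Rps24 by 0.97 (SE 0.20, adjusted p = 3.87e-04), Rps21 by 0.94 (SE 0.20, adjusted p = 4.45e-04) and Rps3a1 by 0.86 (SE 0.16, adjusted p = 1.76e-04). All but Rpl13a and Rpl36a belong to the small subunit. Rpl35a-ps2, a pseudogene on chromosome 1, rose by 1.55 (SE 0.29, adjusted p = 1.76e-04). Rpl17 and Rpl21, whose families hold large pseudogene shares, rose by 1.14 each. The 6 ribosomal protein genes that fell were Rpl32, Rps2, Rpl31, Rpl3, Rpl14 and Rps25, of which those outside the naming rule were chosen after their values were seen. Rpl32 fell by 1.09 (SE 0.15, adjusted p = 1.28e-05) and Rps2 by 0.94 (SE 0.14, adjusted p = 2.11e-05). Rpl14-ps1 fell by 0.82 (SE 0.14, adjusted p = 6.43e-05). The ribosomal protein genes therefore did not move as a block, although most that were called rose.

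**Figure D5:**
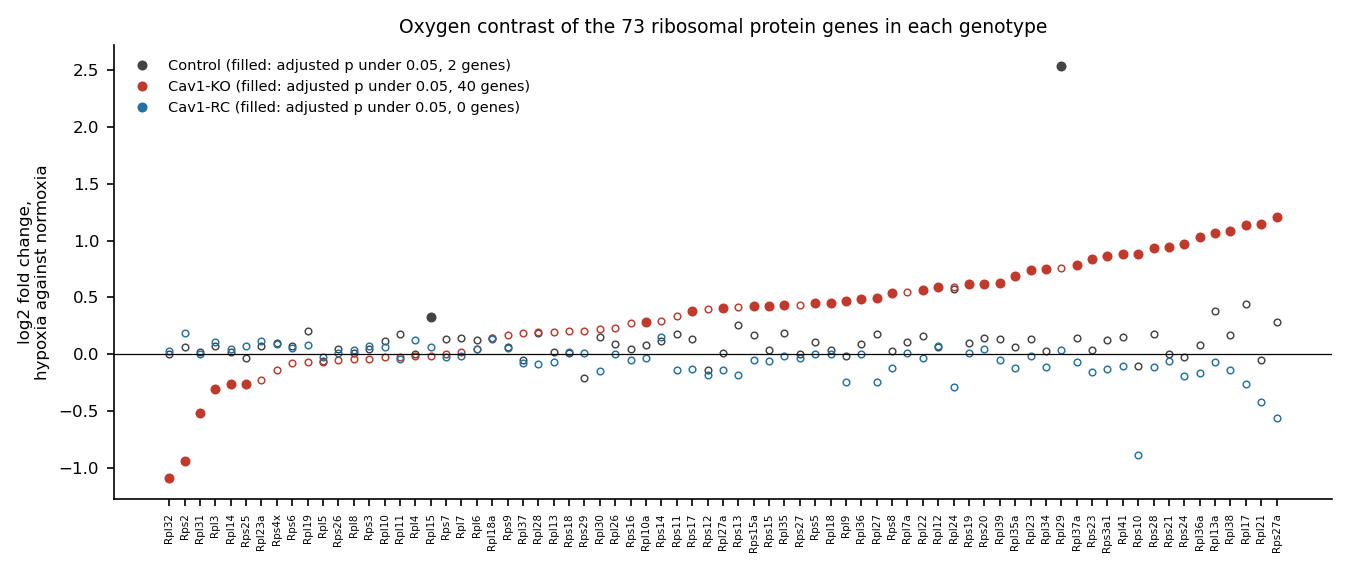
Log2 fold change of hypoxia against normoxia for each of the 73 ribosomal protein genes in Control, Cav1-KO and Cav1-RC, ordered by the value in Cav1-KO, with called genes filled. In Cav1-KO 34 rise and 6 fall, with Rpl32 and Rps2 lowest, whereas 2 are called in Control and 0 in Cav1-RC.

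In Control, 5 members were higher and 1 lower in hypoxia, beside 3.2% and 2.86% of all genes. Of the 73 ribosomal protein genes 2 were higher and 0 lower, with a median of 0.09 and 62 above 0. With a term for the western blot records 1 was higher and 2 lower, with a median of -0.11 and 18 above 0, and of the 109 pseudogenes 1 was higher and 11 lower, where the fit without it gave 2 and 1. Rpl29 rose by 2.54 (SE 0.58, adjusted p = 0.0084) and Rps13-ps2 by 2.40 (SE 0.56, adjusted p = 0.0099), but without male Control hypoxia replicates 1 and 3 their values were -0.71 (adjusted p = 0.25) and -0.77 (adjusted p = 0.48). Rpl15 rose by 0.33 (SE 0.10, adjusted p = 0.040) and gave 0.22 (adjusted p = 0.39) without them, and Rpl15-ps2, which fell by 1.20 (SE 0.33, adjusted p = 0.030), gave -0.50 (adjusted p = 0.38). With only the 22 libraries outside the western blot records, Rpl15-ps2 turned to 0.23 (adjusted p = 0.65), while Rpl29 and Rps13-ps2 had -1.15 and -0.16. In Cav1-RC, 0 members were called by edgeR, beside 1.46% of all genes higher and 1.29% lower. There 5 of the 199 members had an unadjusted p under 0.05, and DESeq2's Wald test also called 0. Rpl29, high in all Cav1-RC libraries, was at 145 to 154 CPM in normoxia and 130 to 186 in hypoxia there.

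Sex by sex, 0 of 173 members tested were called in hypoxic against normoxic female Control lungs by edgeR, with 2 at an unadjusted p under 0.05, beside 0.0175% of all genes called. In male Control 11 of 175 were called, beside 6.36%, and without replicates 1 and 3 of the hypoxic group, which leaves replicate 2 alone, a library whose sex-linked genes go against its label and which was assumed to vary like the others, none was. Without replicate 2 the count was 21. In Cav1-KO 35 of 183 were called in females, beside 13.3%, and 36 of 173 in males, beside 17.7%. The median over the 73 ribosomal protein genes was 0.40 in females and 0.37 in males. In Cav1-RC 0 of 173 were called in females by edgeR, with 3 at an unadjusted p under 0.05, beside 0.0285% of all genes, and 2 of 166 in males, beside 2.27%, or 0 without the 2 male Cav1-RC normoxia libraries whose sex-linked genes go against the label.

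Differences between contrasts were tested as interactions, called at an adjusted p under 0.05 and a difference above 1 on the log2 scale. The effect of Cav1-KO against Control differed between hypoxia and normoxia in 25 members, beside 9.07% of all genes, and that of Cav1-RC against Cav1-KO in 44 members, beside 14.5%. With a term for the western blot records 2 and 0 members were called in these tests. Leaving out 1 library moved the second count to 8 without female Cav1-RC normoxia replicate 1, and it was 30 to 57 without any other. The first count ranged over 9 to 45. It was 9 without female Control normoxia replicate 1, 10 without female Cav1-KO normoxia replicate 1, 12 and 16 without male Control normoxia replicates 2 and 3, 15 and 13 without female Control hypoxia replicates 2 and 3, 45 without replicate 1 of that group, 15 without male Cav1-KO hypoxia replicate 1 and 16 without male Cav1-KO normoxia replicate 2. For Rps2 the first difference was -1.003 (SE 0.19, adjusted p = 0.0029) and for Rpl32 it was -1.09 (SE 0.21, adjusted p = 0.0029). Rpl32, a large-subunit protein, stood at 182 to 264 CPM in Control and 261 to 327.3 in Cav1-KO in normoxia, and at 156 to 332 and 88.1 to 168 in hypoxia. For Cav1-RC against Control 0 members differed between oxygen levels, beside 0.423% of all genes, with 11 at an unadjusted p under 0.05, and DESeq2's Wald test called 3. Between females and males 0 members differed in Cav1-KO against Control, beside 0.00503% of all genes, in Cav1-RC against Cav1-KO, beside 0%, or in Cav1-RC against Control, also beside 0%. These had 5, 1 and 14 members at an unadjusted p under 0.05, and DESeq2's Wald test called 0, 0 and 1. A p above the threshold in these tests does not show that the sexes were alike.

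The paralogues and the members that encode no ribosomal protein are given separately. Rpl22l1, the paralogue of Rpl22, was at 23.3 to 52.0 CPM in Cav1-KO and rose there by 0.81 (SE 0.19, adjusted p = 0.0014) in hypoxia, and it fell by 0.38 (SE 0.13, adjusted p = 0.045) in Cav1-RC against Cav1-KO. Rpl3l, the striated muscle paralogue of Rpl3, was at 0.207 to 1.78 CPM over all libraries and rose by 0.89 (SE 0.26, adjusted p = 0.0235) in Cav1-RC against Control. The 7 cardiac muscle markers summed to levels that moved with the western blot records and were at 141 to 756 CPM in the blot-recorded libraries and 594 to 1574 in the others, and their part in Rpl3l was not tested. Rpl7l1, Rps27l, Rpl36al and Rps27rt were called in none of the 6 averaged contrasts, Rpl39l did not pass the filter and Rpl10l had no counts. Of the S6 kinase genes, Rps6kl1 rose by 1.76 (SE 0.31, adjusted p = 9.73e-05) in hypoxic Cav1-KO lungs and by 1.25 (SE 0.28, adjusted p = 0.0072) in hypoxic Control lungs, where its value was 1.04 (adjusted p = 0.12) without male Control hypoxia replicates 1 and 3. Rps6ka1, a kinase of the Ras pathway, rose by 0.41 (SE 0.12, adjusted p = 0.017) in Cav1-KO against Control and fell by 0.62 (SE 0.17, adjusted p = 0.0046) in hypoxic Cav1-KO lungs. Of the 11 genes of this kind, 4 rose and 5 fell with hypoxia in Cav1-KO, beside 25.1% and 24.5% of all genes. Within Cav1-KO, hypoxia and the western blot records cannot be told apart.

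Other genes of the ribosome pathway were taken from lists by function. Some ribosomal components have symbols that the rule does not match. Rplp1, a stalk protein, fell by 0.39 (SE 0.11, adjusted p = 0.010) in Cav1-RC against Cav1-KO and by 0.58 (SE 0.10, adjusted p = 2.58e-04) against Control. Its 8 unnamed copies summed to 11.2 to 21.9 CPM in Cav1-RC, 32.6 to 70.0 in Cav1-KO and 17.6 to 105 (median 45.8) in Control. Their part in its values was not tested. In hypoxic Cav1-KO lungs Rplp2, the stalk partner of Rplp1, rose by 1.25 (SE 0.22, adjusted p = 1.16e-04) and Fau by 0.77 (SE 0.17, adjusted p = 8.94e-04), while Rack1 fell by 0.33 and Rpsa by 0.29. Hypoxia and the western blot records cannot be told apart in these lungs.

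Of 84 ribosome biogenesis factors, 0 were higher and 2 lower in Cav1-KO against Control, beside 7.36% and 9.51% of all genes, and 4 higher and 10 lower in Cav1-RC against Cav1-KO, beside 11.1% and 10.4%. With hypoxia in Cav1-KO 33 rose and 14 fell, beside 25.1% and 24.5% of all genes, with a median of 0.12. Npm1, a nucleolar chaperone, rose by 0.63 (SE 0.09, adjusted p = 2.28e-05) and Polr1d, a subunit of RNA polymerases I and III, by 0.86 (SE 0.14, adjusted p = 6.97e-05), whereas Rrn3, the initiation factor of RNA polymerase I, fell by 0.52 (SE 0.11, adjusted p = 4.62e-04). Of 38 translation factors 8 rose and 13 fell in that contrast, with Eef1b2 at 0.82 and Eef1a1 at -0.63. Of 19 genes of growth signalling to the ribosome 2 rose and 8 fell there. These counts stand beside the same shares of all genes. Mycn, a transcription factor that drives ribosome production, rose by 1.78 (SE 0.30, adjusted p = 8.50e-05) with hypoxia in Cav1-KO and by 1.91 (SE 0.29, adjusted p = 1.28e-04) in Control, while Rptor, a core part of mTORC1, fell by 0.66 (SE 0.13, adjusted p = 3.38e-04).

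Markers of other cells moved with the same groups. The 5 club cell markers summed to 14843 to 18935 CPM in the normoxic and 38502 to 60249 in the hypoxic Cav1-KO libraries, without overlap, and the 7 ciliated cell markers to 537 to 642 and 833 to 1289. In the blot-recorded libraries the club cell markers were at 35617 to 77625 CPM, against 14843 to 49667 in the others. Every club and ciliated cell marker had counts in every library. Other lists moved in both directions with hypoxia in Cav1-KO, beside 25.1% of all genes higher and 24.5% lower. Of 7 erythroid markers 6 were higher (median log2 fold change 2.95), and of 8 neutrophil markers 3. Lower were 5 of 6 alveolar type 2 (median -0.98), 5 of 10 T cell, 2 of 8 B cell and 2 of 7 cardiac muscle markers. Endothelial markers gave 1 higher and 3 lower of 7. Those of alveolar type 1 gave 1 and 2 of 6, and smooth muscle 1 and 0 of 5. The part of these cells in the rise of ribosomal protein genes in hypoxic Cav1-KO lungs was not tested.

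Genes whose log2 CPM over the 34 libraries was most like that of Rps13-ps1 and Rpl29 are given as a description. The libraries share their genotypes, so these correlations hold no independent points. For Rps13-ps1, Pearson's r was 0.96 with Olfr482, 0.95 with Trim34b and 0.92 with Plekha7, all on chromosome 7, and -0.95 with Rps13-ps2, -0.93 with Unc80 and -0.92 with 6820402A03Rik. Trim34b was at 5.83 to 16.8 CPM in the 10 Control libraries, 0 to 0.832 in Cav1-KO, 2.75 to 12.3 in Cav1-RC, and 0.361 to 0.575 in male Control hypoxia replicates 1 and 3. For Rpl29, r was 0.98 with AC131339.2 and Ero1lb and 0.97 with Zfp125, and -0.99 with Gm10020, a copy of Rpl15, and -0.97 with Gm3375. Ero1lb was at 3.84 to 7.71 CPM in the 10 Control libraries, 4.39 to 8.40 in Cav1-KO, 25.9 to 45.3 in Cav1-RC, and 42.7 to 46.3 in male Control hypoxia replicates 1 and 3. At both sets of genes these 2 Control libraries lay outside the range of the other Control libraries.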

How the data were processed

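RNA of whole mouse lungs had been sequenced after poly-A selection with a directional kit. According to the methods, the authors aligned reads to mm10 with HISAT2 2.0.5 and counted them per gene with featureCounts 1.5.0-p3 at default parameters, by which reads with several alignments are not counted. The authors deposited raw counts per gene and FPKM, which divide them by library total and gene length. The study excluded 1 sample for RNA quality, and 1 library whose identity the labels call uncertain entered no comparison.

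Counts were fitted in R 4.3.3 with edgeR 4.0.16 (quasi-likelihood test, TMM, filterByExpr, Benjamini-Hochberg over all genes tested), as 1 fit over 34 libraries with a mean per group for averaged contrasts and interactions, and as fits of 2 groups for pairwise comparisons. The study's methods used pairwise DESeq2, so DESeq2 1.42.0 was an alternative. A named pseudogene belongs to the parent in its symbol, and families were refitted after summing counts. Shares and parent levels also used the deposited FPKM. Sequences are from GENCODE vM21, aligned with blastn 2.17.0, and coordinates are those of the count table. SE is the log2 fold change over the square root of F. The fits were tested on simulated data.

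Named are Rps13 and Rpl29 with their pseudogenes, up to 4 members in each direction per averaged contrast with the smallest adjusted p past a log2 fold change of 1 and up to 3 of the others, their families, the 5 families with the largest pseudogene share, the 5 highest and lowest parents, paralogues and members of other function, up to 3 genes per list and direction, and the genes most like Rps13-ps1 and Rpl29. Members and lists were chosen with earlier results of these data known. Alternatives were other size factors, the Wald test, no filter, no fold threshold, 1 fit for all pairs, a replicate block, a term for the western blot records, and leaving out libraries. Counts of members from these alternatives stand without the share of all genes called in the same setting, so they are no result about the members. No same-numbered replicates were shown to pair, since 0 of 13 comparisons with 3 pairs had every correlation over 0.1. Depth limits members with few counts, and intervals are not given for them. One gene of the pathway lists is not reported here.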

Additional observations from a re-analysis of the deposited data

Results flagged for a closer look

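Differences between the oxygen levels in a genotype contrast were found by a test of the difference itself (edgeR, adjusted p under 0.05 and a difference above 1 on the log2 scale, hypoxia minus normoxia). For Cav1-KO against Control 25 members differed, and 9 to 45 with 1 library left out. Among the named ones the difference was -1.09 for Rpl32 and -1.003 for Rps2, and it was positive for 6 pseudogenes, at 3.19 for Rps15a-ps5, 1.60 for Rps15a-ps7, 1.60 for Rps12-ps1, 1.32 for Rpl15-ps2, 1.17 for Rpl35a-ps2 and 1.13 for Rps15a-ps3. Male Control hypoxia replicates 1 and 3 lay inside the Cav1-KO range at Rps15a-ps5 and Rps15a-ps7. At Rpl15-ps2 they lay below the other Control libraries. The differences without these replicates are not given. For Cav1-RC against Cav1-KO 44 members differed, and 8 without female Cav1-RC normoxia replicate 1. Here Rps2 and Rpl32 had 1.12 each. The difference was -1.77 for Rps10, -1.20 for Rpl36a, -1.17 for Rps24, -1.13 for Rpl13a and -1.001 for Rps21. Among pseudogenes it was -2.25 for Rps15a-ps5, -2.13 for Rps15a-ps4, -1.76 for Rpl35a-ps2, -1.42 for Rps12-ps1, -1.28 for Rps15a-ps7 and -1.15 for Rps19-ps3. Both contrasts use the same Cav1-KO libraries, of which all hypoxic and no normoxic ones are in the western blot records, and with a term for these records 2 and 0 members differed.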

How the results depend on the processing

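Counts of members called in the averaged contrasts were 21 for Cav1-KO against Control, 32 for Cav1-RC against Cav1-KO, 20 for Cav1-RC against Control, and 6, 101 and 0 for hypoxia in Control, Cav1-KO and Cav1-RC. With a threshold of 1 on the log2 fold change the first 3 were 8, 14 and 8, and that in hypoxic Cav1-KO 40. With a term for the western blot records, Cav1-RC against Control had 11 and the hypoxia contrasts 19, 0 and 2. Without the 12 libraries in these records, Cav1-RC against Cav1-KO had 14, Cav1-RC against Control 13 and hypoxia in Cav1-RC 3, and none could be had for hypoxia in Cav1-KO. Without the 4 libraries whose sex-linked genes go against the label, Cav1-RC against Control had 13. Without male Control hypoxia replicates 1 and 3, hypoxia in Control had 2. The last setting and the one without the 12 libraries were chosen after seeing the data, as were all settings for the interactions. Without both replicates hypoxia in Control was -0.71 for Rpl29 and -0.77 for Rps13-ps2, and without the 12 libraries -1.15, -0.16 and, for Rpl15-ps2, 0.23, all reversed.

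Interactions of Cav1-KO against Control with oxygen numbered 25, against 2 with the blot term and 16 without the 4 libraries, and those of Cav1-RC against Cav1-KO 44, against 0 with the blot term. Interactions of Cav1-RC against Control with oxygen numbered 0, against 3 by the Wald test, 3 with no filter, 3 with the blot term and 4 without the 4 libraries. Those with sex numbered 0, against 1, 1 and 2 by the Wald test, no filter and without the 4 libraries, and 4 for Cav1-KO against Control without the 4 libraries. Summed families called were 4 in Cav1-KO against Control, against 8 by the Wald test, 9 with the blot term, 2 without the 2 Control replicates and 1 without the 12 libraries. In Cav1-RC against Cav1-KO they were 10, against 6, 6 and 2 with the blot term, without the 4 and without the 12, and in Cav1-RC against Control 6, against 3 without the 4. For hypoxia in Control the sum had 1, against 2 (Wald), 4 (blot term), 0 and 0 (without the 2 and the 12), and in Cav1-KO 34, against 0 with the blot term.

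Pairwise, the 6 normoxic genotype comparisons called 27 members together, against 44 with no fold threshold and 46 with no filter, and the 6 hypoxic ones 87, against 214. Pairwise counts with the blot term come from 1 fit over the 34 libraries, which without the term had 114 in the hypoxic comparisons and with it 41. Hypoxia in both sexes called 11 in Control, against 27 with no fold threshold, 19 by the Wald test, 21 without the 4 libraries and 0 without the 2 replicates. In Cav1-KO it called 71, against 186, and in the fit over the 34 libraries 57 without and 0 with the blot term, and in Cav1-RC 2, against 6, 0 in 1 fit over 34 libraries and 0 without the 4. Replicate numbers were not shown to pair samples. The replicate block gave 6 in place of 11 in Control and left the other 22 counts within 1.5 times.

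With 1 library left out, the averaged counts ranged over 15 to 25, 23 to 48, 11 to 36, 3 to 22, 80 to 115 and 0 to 3 in the order above. Cav1-RC against Control had 36 and 11 without female Cav1-RC normoxia replicates 1 and 2, and 31 without female Control normoxia replicate 3. Hypoxia in Control had 22 without female Control normoxia replicate 1, and hypoxia in Cav1-RC 3 without female Control hypoxia replicate 1. The interactions with oxygen ranged over 9 to 45, 8 to 57 and 0 to 4, with 8 without female Cav1-RC normoxia replicate 1, and those with sex over 0 to 4, 0 to 0 and 0 to 6. The pairwise counts ranged over 24 to 50, 66 to 129, 1 to 21, 47 to 88 and 0 to 2. Where only 1 library was left in a group, it was assumed to vary like the others. By FPKM in place of counts, pseudogene shares in Control, Cav1-KO and Cav1-RC were 98.8, 98.2 and 99.0% for Rps10, 70.8, 39.0 and 75.6% for Rps13, 67.7, 67.3 and 67.4% for Rps12, and 75.8, 76.7 and 81.0% for Rpl21. The causes of these changes were not tested.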

Other observations

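The labels call the identity of 1 library uncertain and name normoxic female Cav1-KO as a possible group for it, so it was put in no group and entered no comparison. Its animal number is also in the western blot records. It held 30930450 counts, with Cav1 at 4.43 CPM. For this library CPM divides by its total counts with no TMM factor, so its scale is not quite that of the other libraries. Its values were 1.84 CPM for Rpl29, 217.8 for Rps13, 2.17 for Rps13-ps1, 27.8 for Rps13-ps2, 155 for Rps2, 0.453 for Rps2-ps6, 151 for Rpl15, 9.73 for Rpl15-ps2, 0.905 for Rps15a-ps4 and 0.873 for Rps15a-ps5. The 73 ribosomal protein genes took 2.86% of its counts, above the 2.15 to 2.37% of the normoxic Cav1-KO libraries and inside the 2.43 to 3.58% of the libraries in those records, and the 298 named pseudogenes 0.162%.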
